A study of Macaca fascicularis with 2 samples.

Results

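ZP1, ZP2, ZP3 and ZP4 encode the glycoproteins of the zona pellucida, and ASTL encodes ovastacin, the egg protease that cuts ZP2. The 5 genes were chosen by name, and 4 of them, ZP1, ZP2, ZP4 and ASTL, have a row among the 18446 genes of the deposited table. ZP3 was not analysed here. Single-cell suspensions of whole fetal ovaries of Macaca fascicularis, the cynomolgus monkey, were captured with a droplet 3′ kit, in which each captured RNA molecule is counted once by its unique molecular identifier (UMI). One fetus was taken at embryonic day 84 (E84) and 1 at day 116 (E116), each giving a single library from its pair of ovaries, so that neither stage has a replicate. The barcodes of the 20967 cells end in 1 or 2, and nothing in the table ties an ending to a stage. The endings were therefore used only as 2 unlabelled barcode sets, all cells were treated as 1 pooled sample, and neither a comparison of the stages nor a test was made.

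The zona pellucida is the extracellular coat that a growing oocyte secretes around itself. Sperm bind to it, and after fertilization ovastacin, released from cortical granules, cleaves ZP2 so that further sperm no longer bind. In the mouse, FIGLA, a basic helix-loop-helix transcription factor of oocytes, is required for transcription of the zona genes, and the coat becomes visible as primordial follicles are activated and oocytes grow. In the fetal ovary germ cells pass from mitotic divisions through entry into meiosis and meiotic prophase to oocytes enclosed in follicles, and cells of all these steps were present together in these ovaries.

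Cells were clustered on genes that left out 75 listed genes, the 4 members among them, and clusters were named from fixed marker lists that hold none of the members. Among germ cells 252 were mitotic-like, 1513 premeiotic-like, 1289 meiotic-like and 638 oocyte-like, and clusters of 1314, 836 and 439 cells stayed without a step, while 14686 cells lay outside the germ cell-like clusters. The meiotic-like cells formed 2 clusters, 1 of 918 cells with FIGLA at 32.2 CPM (UMIs per 1000000 UMIs of the group) and 1 of 371 cells with FIGLA at 178 CPM. The oocyte-like cells also formed 2 clusters, a shallow one of 333 cells with a median of 1164 UMIs and a deep one of 305 cells with a median of 21405 UMIs. Of the 638 oocyte-like cells, 617 have barcodes ending in 2 and 21 barcodes ending in 1, so that nearly all that follows on oocyte-like cells describes 1 barcode set. Against the fixed lists, oocyte-like cells of the deep cluster held granulosa markers at a summed 122 CPM (1701 in granulosa-like cells) and stroma markers at 179 CPM (24107 in stroma-like cells). In the shallow cluster the same sums were 173 and 475 CPM. Endothelial markers summed to 744 CPM in the deep and 596 CPM in the shallow cluster (3374 in endothelial-like cells), in each case with 2 of 8 markers over 10 CPM and CLDN5 at 0. VWF, 1 of these 8, is among the leading genes of a germ cell-like cluster of 620 cells, beside ZP4 and ASTL. Macrophage markers summed to 358 and 265 CPM, with 1 of 8 over 10 CPM, and the part of these RNAs in the members' levels was not tested. Across the 2 barcode sets, 27 barcode sequences occur in both. The endings hold 10621 and 10346 cells with median depths of 3130 and 4555.5 UMIs.

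Most UMIs of each member lay in the 638 oocyte-like cells. ASTL had 8316 UMIs in all cells, of which 7032, or 84.6%, lay in oocyte-like cells. ZP2 had 1027 UMIs with 76.3% in oocyte-like cells, ZP4 had 1040 UMIs with 69.4% there, and ZP1 had 41 UMIs, 31 of them there. The cells with over 3000 genes carried 80.1% of all ASTL UMIs and 84.5% of those of ZP2, although they made up 22.3% of the cells. For ZP4 this share was lower, at 60.9%.

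By step, ASTL was at 0 UMIs in mitotic-like cells, where 3 counts would be 0.880 CPM. It was at 1.67 CPM (95% interval 1.06 to 2.51, exact Poisson) in premeiotic-like cells, 3.80 CPM (2.60 to 5.36) in meiotic-like cells and 635 CPM (620.0 to 650) in oocyte-like cells. All intervals here and below cover counting error only and not the variation between cells, animals or libraries. ZP2 followed the same order, with 0 UMIs in mitotic-like cells, then 1.09 CPM (0.609 to 1.80), 2.26 CPM (1.36 to 3.52) and 70.8 CPM (65.9 to 75.9). ZP4, the fourth zona protein, which primates have and the mouse lacks as a working gene, was at 0 UMIs in mitotic-like cells. Its levels were 1.16 CPM (0.664 to 1.89) in premeiotic-like, 1.78 CPM (0.997 to 2.94) in meiotic-like and 65.2 CPM (60.5 to 70.1) in oocyte-like cells. ZP1, a zona protein that cross-links the filaments of the coat, was the scarcest, with 0, 1, 2 and 31 UMIs in the 4 steps and 2.80 CPM (1.90 to 3.97) in oocyte-like cells. For ZP2 and ZP4 the premeiotic-like and meiotic-like intervals overlap, for ASTL the meiotic-like interval lies just above the premeiotic-like one, and for all 3 genes the oocyte-like interval lies far above both.

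**Figure D1:**
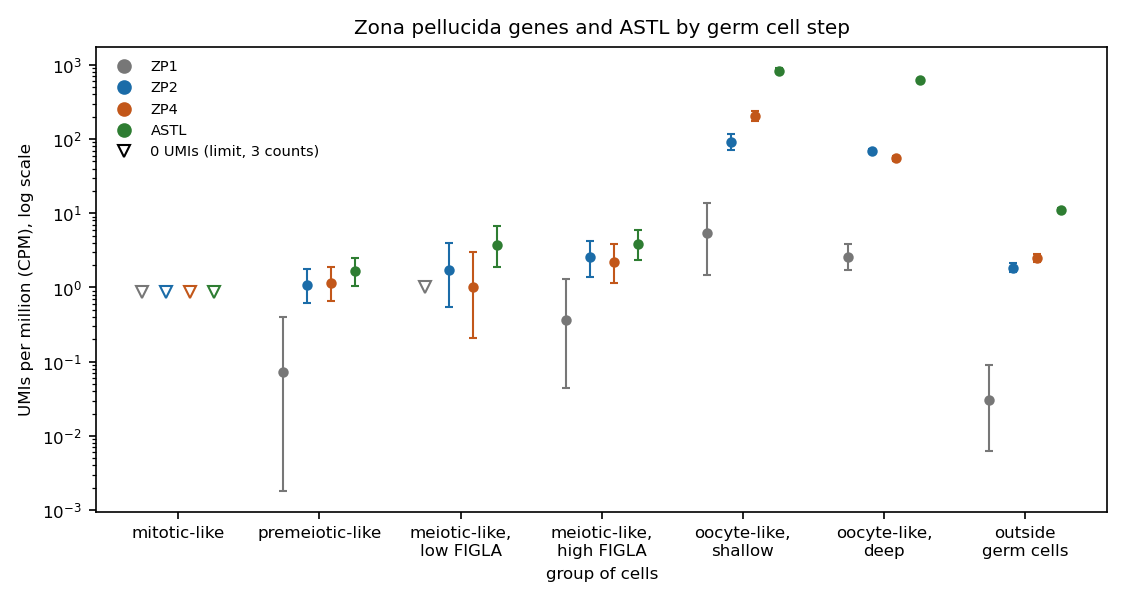
Levels of ZP1, ZP2, ZP4 and ASTL in UMIs per 1000000 (log axis) in 6 groups of germ cells and in all cells outside the germ cell-like clusters. Points are summed UMIs over summed UMIs of the group, bars are exact 95% Poisson intervals (counting error only), and open triangles mark 0 UMIs, drawn at the level of 3 counts. ASTL reaches 834 CPM in the shallow and 620 CPM in the deep oocyte-like cluster and stays at or under 3.83 CPM in the other germ cell groups drawn.

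Against the mitotic-like, premeiotic-like and meiotic-like cells together, ASTL was 296 times higher in oocyte-like cells (95% interval 227 to 393), or 8.21 on the log2 scale (7.83 to 8.62). ZP2 was 53.3 times higher (37.8 to 77.5) and ZP4 53.8 times (37.6 to 79.8), so that the 2 zona genes did not differ in fold beyond their counting error and ASTL lay above both. This likeness of ZP2 and ZP4 depended on the cells and the average taken. On the log2 scale the ratios of ZP2 and ZP4 were 5.72 and 7.06 with at most 10% mitochondrial UMIs, 6.14 and 7.15 as means over cells, and 4.93 and 5.60 with cells of at most 3000 genes. ZP1 rests on 31 against 3 UMIs, a ratio of 23.9 (7.45 to 122). Against mitotic-like cells alone, where every member is at 0, ASTL was at least 721-fold higher, ZP2 at least 80.4-fold and ZP4 at least 74.0-fold, each set against 3 counts in that group. Since 1 barcode set holds nearly all oocyte-like cells and most earlier germ cells are in the other, the ratios were also taken within barcodes ending in 2. There ASTL was 108 times higher (81.9 to 144), ZP2 27.0 times (17.8 to 42.8) and ZP4 18.5 times (12.95 to 27.5). These folds are about 2 to 3 times smaller than the pooled ones, and the order of ASTL over both zona genes is the same in both.

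Among all 15224 genes with at least 10 UMIs in the named germ cells, 1.5% were at least 4 times higher in oocyte-like cells than in the earlier steps, with 10 CPM added to both levels. ZP2, ZP4 and ASTL passed this limit and ZP1 did not. On that scale ASTL was 53.1 times higher and ranked 6 among these genes, ZP2 was 7.13 times higher at rank 85 and ZP4 6.71 times at rank 98. ZP1 was 1.26 times higher, as the added 10 CPM exceeds its level.

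Levels within a step depended on the barcode set. In oocyte-like cells with barcodes ending in 2, ASTL was at 647 CPM (632 to 662), and in the 21 with barcodes ending in 1 at 45.5 CPM (21.8 to 83.7, 10 UMIs), a ratio of 14.2 (7.72 to 29.7). ZP2 was at 71.7 against 22.7 CPM (5 UMIs), 3.15 times higher (1.35 to 9.74). ZP4 was at 66.5 CPM in the first and at 0 of 219807 UMIs in the second, at least 4.87-fold higher when set against 3 counts. FIGLA went the other way, at 538 against 755 CPM, and so did SYCP3, a protein of the meiotic chromosome axis, at 166 against 646 CPM. Barcode set, fetus, stage, library and capture cannot be told apart here. In all 10621 cells with barcodes ending in 1 there was no UMI of ZP4, while there were 33 of ZP2, 72 of ASTL and 3 of ZP1.

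Outside the oocyte-like cells the members also followed the barcode set. In premeiotic-like and meiotic-like cells with barcodes ending in 2, ASTL was at 4.79 CPM (3.04 to 7.19) and 7.64 CPM (5.12 to 10.97). In stroma-like and granulosa-like cells of the same set, which do not make a zona, it was at 11.6 CPM (10.0 to 13.4) and 11.9 CPM (10.5 to 13.6). The ASTL levels of these 2 earlier steps did not exceed the somatic background of their own barcode set. In the other set ASTL had 0 UMIs in 1199 premeiotic-like cells and 3 in 1050 meiotic-like cells, beside 1.32 CPM (0.962 to 1.77) outside germ cells. That last level was not even across classes. Of its 45 UMIs, 40 lay in 36 granulosa-like cells, at 2.57 CPM (interval from 1.84 CPM). Stroma-like cells of that set had 2 UMIs, at 0.243 CPM (interval up to 0.876 CPM). Whether the UMIs in granulosa-like cells are free RNA was not tested. ZP2 in meiotic-like cells with barcodes ending in 2 was at 3.95 CPM (2.21 to 6.52) beside 3.43 CPM (2.66 to 4.34) in granulosa-like and 1.13 CPM (0.678 to 1.76) in stroma-like cells. ZP4 in the same meiotic-like cells was at 3.95 CPM (2.21 to 6.52) beside 5.51 CPM (4.45 to 6.75) in stroma-like and 1.81 CPM (1.27 to 2.51) in granulosa-like cells. By these intervals ZP2 lay above stroma-like cells and overlapped granulosa-like cells, and ZP4 overlapped both classes. The ZP4 level was above that of granulosa-like cells, with intervals that overlap only from 2.21 to 2.51 CPM. Overlap does not show an equal level, and no ratio was taken here. Over all cells outside the germ cell-like clusters, the summed level of the 4 members was 15.4 CPM, or 1.99% of the 773 CPM in oocyte-like cells.

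**Figure D2:**
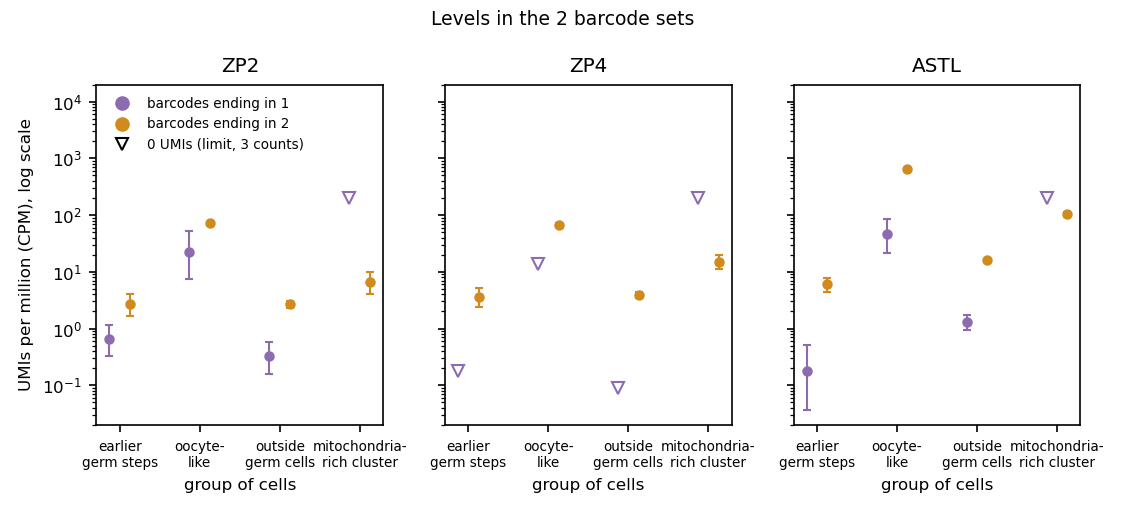
ZP2, ZP4 and ASTL in UMIs per 1000000 (log axis) by barcode ending in 4 groups: mitotic-like, premeiotic-like and meiotic-like cells together (earlier germ steps), oocyte-like cells, all cells outside germ cell-like clusters, and the mitochondria-rich cluster that is among the latter. Bars are exact 95% Poisson intervals and open triangles mark 0 UMIs at the level of 3 counts. Barcodes ending in 2 have the higher level in each group where both sets have UMIs, and ZP4 has none in barcodes ending in 1.

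Shares of cells with a UMI were compared after each cell had been thinned at random to 1000 UMIs. At this depth 34.8% of 506 oocyte-like cells had a UMI of ASTL (exact 95% binomial interval from 30.6%), 6.52% of ZP4, 5.53% of ZP2 and 0.593% of ZP1, and 132 shallower oocyte-like cells were left out. In granulosa-like cells, which should lack the egg genes, ASTL was found in 28 of 4077 cells, or 0.687%. The median depth before thinning was 3337 UMIs in oocyte-like and 5142.5 UMIs in granulosa-like cells. In meiotic-like cells ASTL was found in 4 of 1179, or 0.339%, and in mitotic-like cells in 0 of 252, which allows a share of cells with a UMI of up to 1.19% at 3 counts. All 4 of these meiotic-like cells have barcodes ending in 2, and within that set the share was 1.69% of 237 meiotic-like cells (0.462% to 4.26%) beside 1.31% of 1598 granulosa-like cells (0.815% to 2.00%), so it was not above the background beyond counting error. Without thinning, 56.4% of 638 oocyte-like cells and 4.42% of granulosa-like cells had a UMI of ASTL. In the deep oocyte-like cluster the unthinned share was 77.4% for ASTL, and 84.9% of its 305 cells had a UMI of at least 1 of the 4 members.

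The members were found together in some cells. At 1000 UMIs, 42 of 506 oocyte-like cells, or 8.30%, had UMIs of 2 or more of the 4 genes, 151 had 1 of them and 313 had none. Of the 33 cells with a ZP4 UMI, 26 also had ASTL (78.8%), against 31.7% of the 473 cells without ZP4. Of the 28 cells with ZP2, 17 had ASTL (60.7%), against 33.3% of those without. ZP4 was in 5 of the 28 cells with ZP2 and in 28 of the 478 without. Over the 247 deep oocyte-like cells with at least 5000 UMIs, thinned to that number, Spearman's rank correlation over cells was 0.29 between ASTL and ZP4 and 0.13 both between ASTL and ZP2 and between ZP2 and ZP4. The values are sparse counts, 12 of the 247 cells have barcodes ending in 1, where ASTL is lower, and the correlations only describe these cells. ASTL had a coefficient of 0.41 with ZAR1, an RNA-binding maternal effect protein, 0.23 with GDF9, the oocyte growth factor, and -0.25 with SYCP3.

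The spread of counts among oocyte-like cells was wide, and these counts are not scaled for depth. The 89 oocyte-like cells with 50000 or more UMIs held 5235 of the 7032 ASTL UMIs and 6783016 of the 11079104 UMIs of this step. In the 305 deep cells ASTL ranged from 0 to 277 UMIs a cell, with a median of 4 and an upper quartile of 27, and the 31 highest cells held 53.9% of its UMIs. ZP4 was more uneven, with a median of 0, a highest value of 60 UMIs and 78.6% of its UMIs in the 31 highest cells. ZP2 had a median of 1 and a highest value of 31 UMIs, and 51.1% lay in the 31 highest cells. FIGLA, beside them, was more even, with a median of 12 UMIs and 30.6% of its UMIs in as many cells. ZP1 reached 3 UMIs in a cell and was seen in 22 of the 305 cells.

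Between the 2 meiotic-like clusters FIGLA differed and the pooled ASTL level did not follow it. In barcodes ending in 2, ASTL in meiotic-like cells did not exceed the somatic background given above, which limits this contrast. In the meiotic-like cluster with more FIGLA, FIGLA was at 178 CPM from 974 UMIs, 5.52 times the level of the other meiotic-like cluster (4.47 to 6.89), and only 6 genes, 0.0478% of the 12546 compared, were at least 4 times higher with 10 CPM added. In that cluster ASTL was at 3.83 CPM (2.37 to 5.86) from 21 UMIs, against 3.73 CPM (1.86 to 6.68) in the meiotic-like cells with less FIGLA, a ratio of 1.03 (0.474 to 2.36). ZP2 stood at 1.51 times (0.513 to 5.35) and ZP4 at 2.15 times (0.581 to 11.9), and neither interval excludes an equal level, or a ratio within the interval of FIGLA. The pooled ratios of ASTL and ZP4 mix the 2 barcode sets unequally. The cluster with less FIGLA has 872 of its 918 cells in barcodes ending in 1. In that set ASTL had 1 UMI in the cluster with more FIGLA (0.494 CPM) and 2 in the other (0.768 CPM). ZP4 had none there in either cluster. Within barcodes ending in 2, ASTL was at 5.79 CPM (20 UMIs in 193 cells) in the cluster with more FIGLA and at 26.2 CPM (9 UMIs in 46 cells) in the other, a ratio of 0.221 (0.0963 to 0.552), and ZP4 had a ratio of 0.398 (0.107 to 2.20). From the high-FIGLA meiotic-like cells to the deep oocyte-like cells FIGLA was 3.17 times higher (2.96 to 3.396), ASTL 162 times (106 to 262), ZP2 27.1 times (16.05 to 49.8), ZP4 25.2 times (14.3 to 49.0) and GDF9 13.1 times (11.2 to 15.5). Within barcodes ending in 2 the same ratios were 2.65 for FIGLA, 109 for ASTL, 17.3 for ZP2 and 16.2 for ZP4. FIGLA marks the oocyte step and took part in naming it, whereas the members did not.

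Among the deep oocyte-like cells the members showed no steady order with the FIGLA count. Deep oocyte-like cells at 5000 UMIs held ASTL at 445 CPM (330 to 589) in the 22 cells with 0 FIGLA UMIs, 584 CPM (517 to 656) in the 97 with 1 to 2, 449 CPM (391 to 515) in the 93 with 3 to 5 and 411 CPM (322 to 518) in the 35 with 6 or more. ZP2 was between 40.0 and 68.0 CPM in these 4 classes, with overlapping intervals. ZP4 was at 9.09 CPM (0.230 to 50.7) from 1 UMI in the cells without FIGLA and between 45.2 and 57.7 CPM in the others. SYCP3 lay at 90.9, 192, 241 and 309 CPM in the order of the FIGLA classes. Meiotic-like cells of the high-FIGLA cluster with 3 to 5 FIGLA UMIs had no UMI of ASTL in 26 cells, which allows up to 23.1 CPM, and those with 6 or more had 2 in 9 cells. Over all oocyte-like cells thinned to 1000 UMIs, the summed members were at 596 CPM in the 188 cells with a FIGLA UMI and 978 CPM in the 318 without, a ratio of 0.609 (0.486 to 0.758). It came to 0.829 (0.700 to 0.983) at 2000 UMIs and 0.810 (0.735 to 0.895) without thinning, and within barcodes ending in 2 to 0.873 (0.737 to 1.03) at 2000 UMIs, which does not exclude an equal level. These oocyte-like cells include both clusters. The shallow cluster had less FIGLA and the summed members at 1134 CPM, against 747 CPM in the deep one. The part of this mix in the ratio was not tested. In meiotic-like cells without thinning the ratio was 2.95 (1.72 to 5.25) from 48 and 20 UMIs, and within barcodes ending in 2 it was 1.79 (0.957 to 3.61). At 2000 UMIs it was 7.996 (2.65 to 25.3) from 9 and 7 UMIs, and 7.24 (2.02 to 32.2) within barcodes ending in 2. At 1000 UMIs the 84 meiotic-like cells with FIGLA had 0 UMIs of the members and the 1095 without had 8, which leaves a ratio of up to 7.64. ASTL alone had a ratio in meiotic-like cells of 3.14 (1.40 to 7.71) without thinning, and 1.86 (0.737 to 5.59) within barcodes ending in 2. At 2000 UMIs its ratio was 15.5 (2.55 to 163) from 5 and 2 UMIs, and 16.1 (1.80 to 761) within barcodes ending in 2. At 1000 UMIs it had 0 UMIs with FIGLA and 5 without.

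**Figure D3:**
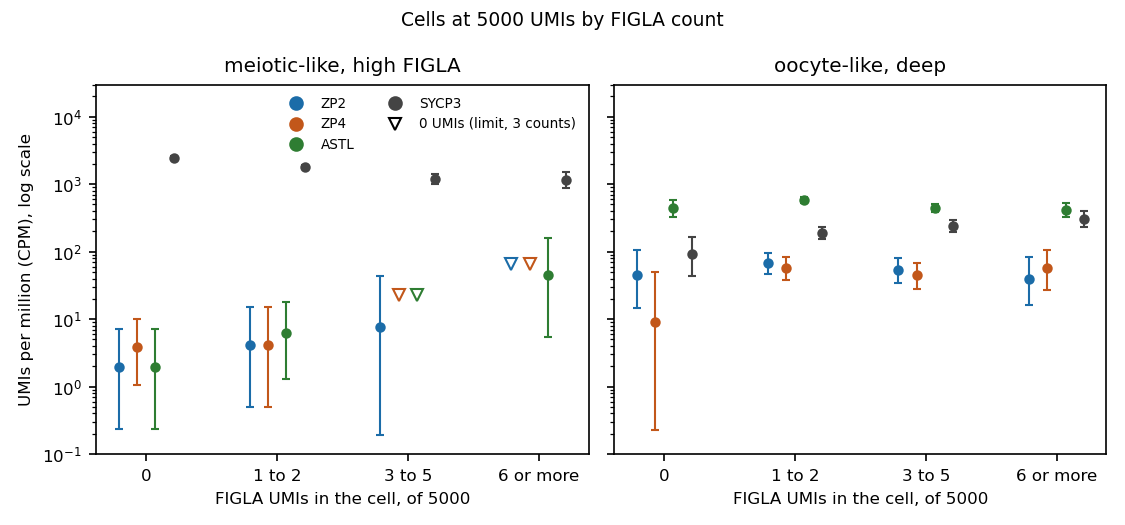
ZP2, ZP4, ASTL and SYCP3 in UMIs per 1000000 (log axis) in cells thinned to 5000 UMIs, by the number of FIGLA UMIs left in the cell, for the meiotic-like cluster with more FIGLA (left) and the deep oocyte-like cluster (right). Bars are exact 95% Poisson intervals and open triangles mark 0 UMIs at the level of 3 counts. ASTL lies between 411 and 584 CPM in all 4 FIGLA classes of oocyte-like cells, and on 0 to 3 UMIs a class in meiotic-like cells.

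Of the 4 members, ZP4 differed most between the 2 oocyte-like clusters. ZP4 was at 204 CPM (172 to 239) in the shallow and 55.2 CPM (50.7 to 59.9) in the deep cluster, a ratio of 3.69 (3.06 to 4.42). ASTL was at 834 against 620 CPM, 1.34 times higher (1.24 to 1.46), and ZP2 at 91.1 against 69.3 CPM, 1.31 times (1.01 to 1.69). FIGLA was lower in the shallow cells, at 0.432 times the deep level (0.371 to 0.501), and GDF9 was at 0.944 times (0.830 to 1.07). Of 12666 genes with at least 10 UMIs in oocyte-like cells, 0.568% were at least 2 times higher in the shallow cluster with 10 CPM added, and ZP4, at 3.28 times, was the only member among them. A further 5.53% were at least 2 times lower, FIGLA among them and no member. The erythroid markers also moved with this contrast, at a summed 27.3 CPM in the deep and 313 CPM in the shallow cluster (473041 in erythroid-like cells), with 1 of 7 over 10 CPM in each, and their part in it was not tested. The ZP4 UMIs of the shallow cluster came from few cells, 152 UMIs in 40 cells with 32 in the highest. Without the highest cell of each cluster the ratio was 3.32 (2.70 to 4.06). ZP4 and ASTL are among the 3 leading genes of the shallow cluster against other germ cells, although neither was used in the clustering.

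By depth, the summed level of ZP2 was even and those of ZP4 and ASTL were not. Over 6 classes of oocyte-like cells, from under 1000 to 50000 or more UMIs, ZP2 lay between 51.7 and 74.5 CPM, and each interval overlaps the others. ZP4 was between 82.7 and 125 CPM in the 4 classes under 20000 UMIs, at 13.7 CPM (9.30 to 19.4) in the 65 cells with 20000 to 50000 UMIs and at 70.0 CPM (63.9 to 76.6) in the 89 deepest. ASTL was at 362 CPM (252 to 503) under 1000 UMIs, 733 and 704 CPM in the next classes, 482 CPM (447 to 519) from 5000 to 20000 UMIs, 317 CPM (294 to 341) from 20000 to 50000 and 772 CPM (751 to 793) at 50000 or more. In the 65 cells with low ZP4 and ASTL, FIGLA and SYCP3 were at 661 and 328 CPM, against 528 and 114 CPM in the deepest cells. The cells under 1000 UMIs, where ASTL and SYCP3 (279 CPM, 184 to 406) overlap those of the 65 cells, had FIGLA at 310.0 CPM, the lowest of the 6 classes. Split at the gene limit, oocyte-like cells with over 3000 genes held ZP4 at 0.320 times the level of the others (0.270 to 0.380), ASTL at 0.811 times (0.754 to 0.873) and ZP2 at 1.01 times (0.797 to 1.30). Cell by cell, the median level of ASTL was 69.1 CPM in the 65 cells (quartiles 0 and 285) and 601 CPM in the 89 deepest (quartiles 313 and 1023). For ZP2 the medians were 35.8 CPM in the 65 cells (quartiles 0 and 79.9) and 58.1 CPM in the deepest (quartiles 30.3 and 97.4). Of the 65 cells 42 had a UMI of ZP2. Of the deepest cells 87 of 89 had a UMI of ASTL, 87 a UMI of ZP2 and 64 a UMI of ZP4. Only 3 of the 65 cells and 0 of the 89 have barcodes ending in 1.

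**Figure D4:**
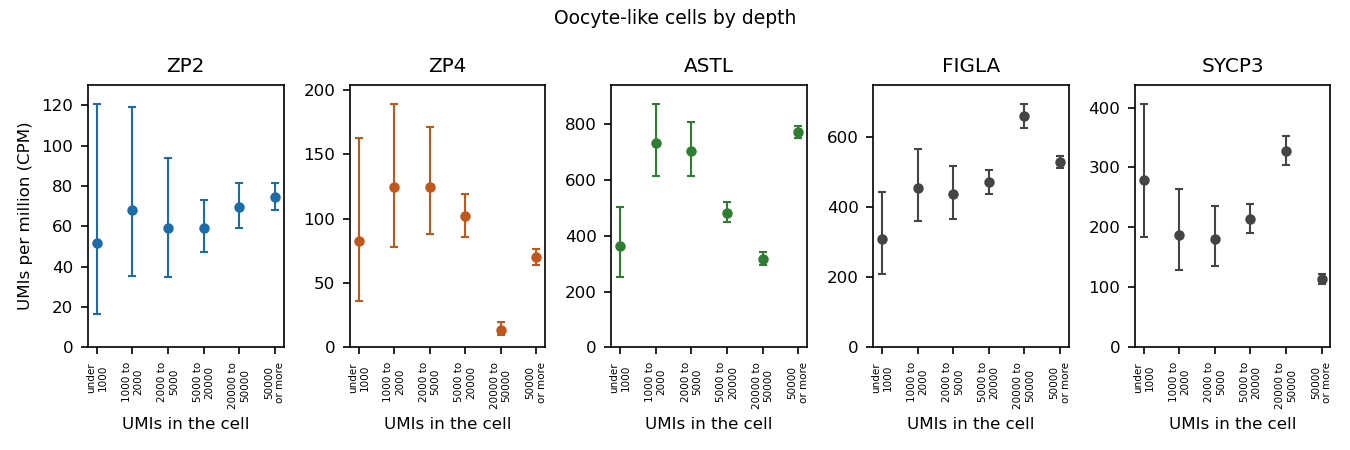
ZP2, ZP4, ASTL, FIGLA and SYCP3 in UMIs per 1000000 (linear axes from 0, a scale for each gene) in 6 classes of oocyte-like cells by the UMIs of the cell. Points are summed levels and bars exact 95% Poisson intervals, which cover counting error and not the spread between cells. In cells with 20000 to 50000 UMIs ZP4 (13.7 CPM) and ASTL (317 CPM) are lowest while FIGLA (661 CPM) and SYCP3 (328 CPM) are highest, though for ASTL and SYCP3 the intervals overlap those of cells under 1000 UMIs.

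The background of the members outside germ cells was uneven. ASTL was highest in a cluster of 1694 cells without a name, led by mitochondrial genes and with a median of 49.8% mitochondrial UMIs, at 103 CPM (92.1 to 114). Within barcodes ending in 2, to which 1680 of its cells belong, that is 8.88 times the level in stroma-like cells (7.43 to 10.6), and 13.02 times with both sets. The 346 ASTL UMIs there lay in 212 cells, with 19 in the highest and 5 or more in 12 cells. Of the fixed markers only FST and INHBB, 2 of the granulosa list, were raised in this cluster, under the 3 needed for a name. In other clusterings the unnamed cluster led by mitochondrial genes was smaller, with 500 cells at resolution 1.0 and 446 with 30 principal components. None of the fixed markers was raised there, and a granulosa cluster with INHBB raised stood apart. Under the gene limit such a cluster of 382 cells had VWF as its only raised marker and ASTL among its 10 leading genes. Which cells the cluster of 1694 holds was not tested. Beside the same stroma-like cells ZP2 was at 5.82 times (3.01 to 11.4), ZP4 at 2.70 times (1.88 to 3.85), FIGLA at 3.37 times and GDF9 at 2.01 times. In the other clusters outside germ cells, in barcodes ending in 2, ASTL ran from 6.42 CPM in endothelial-like to 22.2 CPM in erythroid-like cells.

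Beside ASTL, the 2 zona genes did not keep 1 ratio. In barcodes ending in 2, deep oocyte-like cells held 8.90 ZP4 UMIs for every 100 of ASTL (8.16 to 9.70) and shallow ones 24.5 (20.4 to 29.3). Stroma-like cells held 47.4 (36.7 to 61.0), granulosa-like cells 15.2 (10.4 to 21.6) and the mitochondria-rich cluster 14.5 (10.5 to 19.5). For ZP2 the number was 11.1 (10.3 to 12.02) in deep and 10.8 (8.26 to 13.9) in shallow oocyte-like cells and 9.69 (5.71 to 15.5) in stroma-like cells. It was 28.7 (21.6 to 37.7) in granulosa-like and 120.0 (71.9 to 202) in endothelial-like cells. The 36 ZP2 UMIs of endothelial-like cells in that set lay in 18 of 400 cells with at most 6 in a cell, and 18 of the 68 in granulosa-like cells came from 1 cell. Whether these UMIs are free RNA, doublets or transcription in those cells was not tested.

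**Figure D5:**
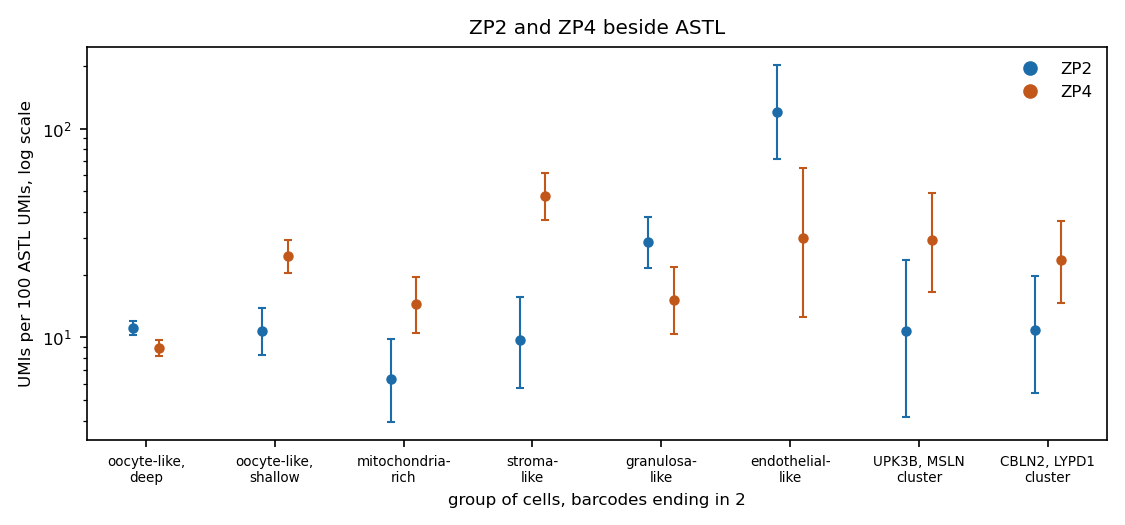
ZP2 and ZP4 UMIs for every 100 ASTL UMIs (log axis) in cells with barcodes ending in 2, in 2 oocyte-like clusters and 6 clusters or classes outside germ cells. Bars are exact 95% intervals of the ratio of 2 counts. ZP4 runs from 8.90 in deep oocyte-like to 47.4 in stroma-like cells, and ZP2 stands apart in endothelial-like cells at 120.0.

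Among germ cells without a step, 1 shallow cluster of 836 cells (median 1114 UMIs, its named leading genes being HBB, S100A6 and IFI27, 733 cells with barcodes ending in 2) held ASTL at 43.3 CPM (33.3 to 55.5), ZP4 at 20.0 CPM (13.4 to 28.7) and ZP2 at 7.57 CPM (3.78 to 13.5). The shallow cluster of 1314 cells, led by HBB and collagen genes and with 1293 cells of barcodes ending in 1, had 6 UMIs of the members in all. The deep cluster of 439 cells, led by PTGDS, EGR3 and EGR1, held ASTL at 7.65 CPM (6.12 to 9.45), and most of these UMIs, 73 of 86, came from its 128 cells with barcodes ending in 2.

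Other genes of the egg were taken from fixed lists, as background to the members. Of oocyte transcription factors, 6 of 9 compared were at least 4 times higher in oocyte-like cells, beside 1.5% of all genes. Of these, FIGLA, NOBOX, SOHLH1 and LHX8 had named the step, while TBPL2, a TATA-box-binding factor of oocytes, at 4.09 times, and TP63, which guards oocyte genome integrity, at 5.25 times had not. Of oocyte growth factors and egg proteins, 8 of 20 passed, and of the 12 that had not named the step 3 did. These were PADI6, of the subcortical maternal complex, at 58.6 times, NLRP14 at 13.02 times and NPM2, a chaperone of egg chromatin, at 10.9 times. Of fertilization and cortical granule genes only RAB27A, a GTPase of secretory vesicles, passed, at 8.98 times, 1 of 11 compared. ASTL, at 53.1 times, stood well above the 11 genes compared in this list. FURIN, the protease of the secretory route, was at 1.28 times and CD9, the egg membrane protein needed for sperm fusion, at 0.621 times. No other zona-domain gene passed of 3 compared, where ENG, an endothelial TGF-beta co-receptor, came nearest at 3.69 times, nor did BMP1 or TLL2, the 2 other astacin proteases compared. The median over all 15224 genes was 0.948.

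By pattern, the genes most like each member were found over 25 groups of cells, among 14063 genes with at least 100 UMIs, by Pearson's correlation of log2(CPM + 10). ZP2 was nearest to UNC13C (r = 0.98), PRODH2 (0.97) and RYR3 (0.97), ZP4 to DSCAML1 (0.96), RYR3 (0.96) and ASTL (0.96), and ASTL to PADI6 (0.98), CCDC146 (0.97) and the unnamed gene ENSMFAG00000046430 (0.97). The members themselves correlated at 0.94 (ZP2 with ZP4 and ZP2 with ASTL) and 0.96 (ZP4 with ASTL). Both oocyte-like clusters are among the groups, whose coefficients were not computed without them, the groups come from 2 libraries, and ZP1, with 41 UMIs, fell under the limit.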

How the data were processed

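The authors made the values with Cell Ranger 3.0.2, mapping reads to Macaca_fascicularis_5.0, and analysed them in Seurat. Per gene and cell, the file the authors deposited gives UMI counts as whole numbers, not normalized. It still holds cells above the limit of 3000 genes that the study's methods give, and neither doublets nor free RNA are said to have been removed. Each of 27 barcode sequences shared between the endings was kept as 2 cells.

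Counts were normalized and clustered with Seurat 5.3.0 (R 4.3.3), with 2000 variable genes, 18 principal components, 20 neighbours and resolution 0.6, leaving out 75 listed genes, and germ cells were clustered again in the same way into 11 clusters. A cluster took a name from at least 3 markers that were 1.5 times higher (10 CPM added) and in 5% of its cells, unless lists tied or markers of another type led. That step markers could lead a germ cell cluster, and that germ cell clusters led by somatic markers lose their step, was decided after the clusters had been seen. The members and lists were chosen with earlier results of these data known. All members were named, list genes by count with up to 4 examples, and the 3 genes most like each member. FURIN and CD9 were chosen as examples after their values were seen.

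Levels were summed UMIs per 1000000 (CPM) with exact Poisson intervals, ratios had exact conditional binomial intervals and shares Clopper-Pearson ones, all at 95%, from scipy 1.17.1, and at 0 UMIs the level of 3 counts was given. UMIs tag the 3′ end and were not scaled by length, so levels of different genes also reflect how the annotation covers each end. The calculations were tested on simulated data. Scrublet (scanpy 1.11.5) called 0 doublets and so did not work, and the top 8% of scores were removed in an alternative. No gene was tested for a difference, as there are no replicates. No sequence is shown.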

Additional observations from a re-analysis of the deposited data

How the results depend on the processing

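Values move here with which cells count as oocyte-like, with depth and with the barcode set, and counting intervals miss variation between animals, so no alternative stands in for a replicate. The summed level of the 4 members in oocyte-like cells, 773 CPM, was 615 CPM with cells of 200 to 3000 genes only (953 oocyte-like cells), 748 CPM at resolution 1.0 (314 cells, as the shallow cluster lost its name), 414 CPM with at most 10% mitochondrial UMIs (264 cells), 796 CPM without the highest doublet scores, 747 CPM without the shallow cluster (chosen after seeing the data) and 68.2 CPM in barcodes ending in 1 (21 cells). The log2 ratio over the earlier germ steps, 7.33, was 6.15 under the gene limit, 6.27 and 5.98 in barcodes ending in 1 and 2, and 7.62 as a mean over cells. The level outside germ cells, 1.99% of that in oocyte-like cells, was 3.36% under the gene limit, 2.14% under the mitochondrial limit, 2.41% and 2.88% in barcodes ending in 1 and 2, 1.81% with all genes among the variable genes and 1.82% without the highest doublet scores. The share of oocyte-like cells with a UMI of any member, 38.1%, was 52.6% at 2000 UMIs, 63.8% without thinning and 10.0% in barcodes ending in 1, and for 2 or more members, 8.30%, it was 13.2%, 34.2% and 0%. The ratio by FIGLA, 0.609, was 0.829, 0.810 and 1.00, the last from 20 cells, of which only 2 had a UMI of any member, too few to read. For single members, the 41 alternative log2 ratios that had a value were all above 0, from 3.63 to 8.29. In barcodes ending in 1, ZP1 and ZP4 had 0 UMIs in oocyte-like cells and so gave no log2 ratio. There ZP1 had 1 UMI in the earlier germ steps, the opposite direction, and ZP4 had 0. ZP1 under the gene limit also has no ratio among the 41. The list count stayed within 1.5 times its main value of 15. Leaving out replicates was not run, as there are none. No paired analysis was possible because the result comes from no test and each stage has 1 library.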

Other observations

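Other genes differed between the 2 oocyte-like clusters, and not all as the members did. PADI6 was at 754 CPM in the deep and 378 CPM in the shallow cluster, and KPNA7, an importin alpha of the egg, at 445 and 210 CPM. DSCAML1 went with ZP4, at 31.6 CPM in the deep and 76.3 CPM in the shallow cluster, and DPEP1, a dipeptidase, at 82.1 and 141 CPM. These genes were chosen after their values were seen, from those with patterns near a member's, and each cluster is 1 group of cells with no replicate.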
